A study of Mus musculus with 12 samples.

Results

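The genes described here encode tubulins, stathmins and microtubule-associated proteins (MAPs), measured as RNA in myelin purified from the mouse brain at 4 ages. They were chosen by name: every alpha-, beta-, gamma-, delta- and epsilon-tubulin gene, the stathmins Stmn1 to Stmn4, the end-binding proteins Mapre1 to Mapre3, the Tppp genes, the structural MAPs Mapt, Map1a, Map1b, Map1s, Map2, Map4, Map6 and Map7, and the doublecortin genes Dcx, Dclk1 and Dclk2. The rule found 41 of the 21937 genes listed, and 36 of them averaged 10 or more normalized reads over the libraries and were tested. Myelin, the stacked membrane that oligodendrocytes wrap around axons, was isolated as a light membrane fraction from brains of male wild-type c57Bl6/N mice. Each age, postnatal day 18 (P18), postnatal day 75 (P75), 6 months and 24 months, had 3 libraries of total RNA, 12 libraries in all. The paper states 3 individual brains for 6 months, and the labels of the other ages give replicate numbers only. No animal was treated. The comparisons follow the transcript pool from active myelination at P18 to maturity and old age.

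Microtubules are hollow polymers of alpha- and beta-tubulin heterodimers, and gamma-tubulin starts their growth. Structural MAPs bind along the wall and stabilize the polymer, end-binding proteins track the growing plus end, and stathmins bind free tubulin dimers and favour disassembly. Oligodendrocytes use microtubules to extend their processes and to carry mRNAs into the developing sheath, while axons hold dense microtubule bundles that run beneath the myelin, so that a transcript of this kind in a myelin fraction can belong to either cell.

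The libraries held 20299052 to 27214385 reads on genes. Within an age, Pearson's r across genes between libraries was 0.986 to 0.987 for P18 replicate 3 with the others of its age, and at least 0.991 for all other pairs. Myelin and mature oligodendrocyte markers were abundant in every library, none of the 17 was at 0 at any age, and their summed normalized read count spanned 369297 to 659062 at P18, 231173 to 290092 at P75, 288445 to 389254 at 6 months and 312768 to 329886 at 24 months. The lowest P18 value was in replicate 3. From P18 to P75 8 of these markers fell and 5 rose, beside 22.9% and 25.9% of all genes. Of 10 newly formed oligodendrocyte markers, 9 fell and 1 rose in that comparison. The sum of those 10 spanned 33337 to 79179 at P18 and 82720 to 120761 at P75. Markers of other cells were present as well. The sum of 12 astrocyte markers spanned 154246 to 192487 at P18 and 188292 to 195301 at 24 months. The summed count of 17 neuron markers spanned 214008 to 258676 at P18, 247520 to 279240 at P75, 276344 to 293946 at 6 months and 252273 to 273844 at 24 months. The sum of 12 immature neuron markers spanned 10706 to 12739 at P18, 9223 to 9738 at P75, 6340 to 6833 at 6 months and 6731 to 6994 at 24 months. The sum of 15 microglia markers spanned 8318 to 9654 at P18 and 22729 to 28487 at 24 months. Over that span 14 of them rose, beside 34.7% of all genes. No marker of these lists was at 0 in every library of an age. The part of these cell types in the results below was not tested, and fewer cells of a type, less RNA per cell and a different yield in the myelin fraction cannot be told apart in these libraries.

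The microtubule genes tended to be highest at P18 and lowest at 24 months. The highest mean was at P18 in 21 of the 36 tested, at P75 in 5, at 6 months in 10 and at 24 months in 0. The lowest mean was at 24 months in 18. The matching shares of all genes were not computed, so these counts describe the microtubule genes alone. In the limma test (false discovery rate 0.1 over all 14634 tested genes), 5 rose and 14 fell from P18 to P75, where 25.9% of all genes rose and 22.9% fell. These were 13.9% and 38.9% of the microtubule genes. The median log2 change of the microtubule genes was -0.23, against 0.02 over all genes. With libraries scaled to the same total in place of the authors' size factors, 6 rose and 8 fell, and the median of all genes moved to 0.14.

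From P75 to 6 months 11 microtubule genes rose and 10 fell. These shares were 30.6% and 27.8%, beside 31.2% and 29.4% of all genes, and the median log2 change of 0.06 stood beside 0.01 for all genes. Among the genes with at least 80% of their exonic 31-base windows found once in the genome, 10 rose and 3 fell. This set is smaller, and its shares were not computed. The falls of Stmn1, Tuba1b, Tubb2a, Tubb2b, Tubb3, Tubg1 and Tubg2 and the rise of Tuba1a lay outside it. From 6 to 24 months 13 fell, 12.7% of all genes having fallen, and 0 rose in the limma test, 16.6% of all genes having risen. At an unadjusted p under 0.05, 1 rose, and 1 rose in edgeR and in DESeq2 as well. In both tools it was Tppp3, with adjusted p-values of 0.0913 and 0.0851. Over the whole span from P18 to 24 months 3 rose and 22 fell, against 34.7% and 34.3% of all genes, with a median log2 change of -0.43 beside -0.01. Scaling to the same total gave 6 and 19. Without P18 replicate 3, the library that stood apart, 5 rose and 14 fell from P18 to P75, 3 rose and 22 fell over the whole span, and 1 rose and 17 fell from 6 to 24 months. The 4 comparisons share libraries, so their counts are not independent of each other.

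Most of these changes were small. Replicates of both ages did not overlap for 16, 22, 20 and 25 of the 36 genes in the order of the comparisons above, where 47.7%, 63.1%, 43.5% and 66.6% of all genes did not overlap. Only Tubb2b changed by at least 1 on the log2 scale with a call, and Map1a came next at 0.999. Calls between consecutive ages were also read as patterns, whose shares of all genes were not computed. The steps to and from 6 months use the same 6-month libraries. By these calls, 10 genes rose from P75 to 6 months and then fell by 24 months. They were the tubulins Tuba1a, Tuba4a and Tubb4a, the structural MAPs Map1a, Map1b, Map1s and Map2, the doublecortin-like kinases Dclk1 and Dclk2, and Tppp. Of these, 5 had also fallen from P18 to P75 (Tuba1a, Tuba4a, Tubb4a, Dclk1 and Dclk2), as had Map6 before its rise. Only Tubb2b fell at every step. In 6 genes, Map4, Mapt, Stmn4, Tuba1c, Tubb4b and Tubb6, none of the 4 comparisons was called. All of these but Tubb6 gained a call under some alternative, Map4 among others with the replicate number as a block.

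**Figure D1:**
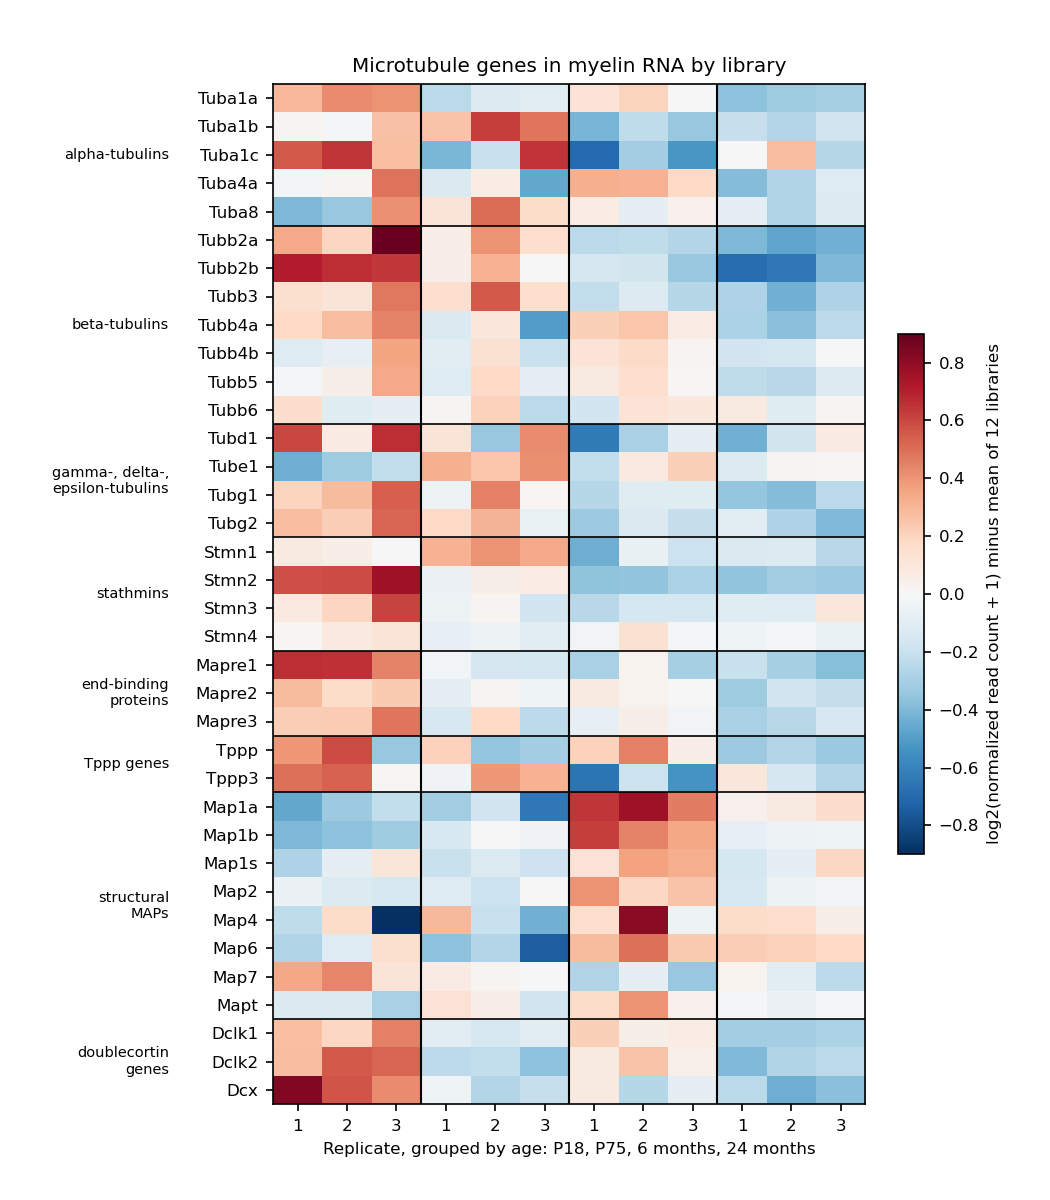
Each row is 1 of the 36 tested genes and each column 1 of the 12 libraries, grouped by age. Colour gives log2(normalized read count + 1) minus the gene's mean over the libraries, from -0.90 (blue) to 0.89 (red). Tubb2b, Stmn2, Dcx and Mapre1 are red at P18, and Map1a and Map1b at 6 months.

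The alpha-tubulins form one partner of the tubulin dimer. Levels are compared between genes as normalized read counts per kilobase of the longest protein-coding transcript. On that scale Tuba1a was the highest alpha-tubulin over all ages (5489), followed by Tuba1b (4628) and Tuba4a (3730), while Tuba8 (187.5) and Tuba1c (13.7) were far lower. Tuba1a (NCBIM37, chr15:98780272-98783982, minus strand, 4 merged exons) and Tuba1b (chr15:98761856-98764996, minus strand, 3 merged exons) are neighbours on chromosome 15 and their coding sequences are 98.3% identical over 1356 bases. Of all 31-base windows in their exons, 17.7% of Tuba1a and 10.5% of Tuba1b occur once in the genome, so the counts of both depend on how reads with several matches were treated and are uncertain.

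Tuba1a fell, rose and fell. At P18 its normalized read counts were 10945, 11926 and 11744 in replicates 1, 2 and 3, at P75 7492, 8167 and 8319, at 6 months 9648, 10193 and 8886, and at 24 months 6869, 7099 and 7202. No pair of neighbouring ages overlapped. From P18 to P75 it fell by 0.53 ± 0.09 on the log2 scale (SE; adjusted p = 0.000203, limma), then rose by 0.26 ± 0.09 (adjusted p = 0.0208) and fell by 0.44 ± 0.09 (adjusted p = 0.00427).

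Tuba1b moved the opposite way at the first steps. Its counts were 8010, 7783 and 9452 at P18, 9390, 12092 and 10971 at P75, 5880, 6724 and 6211 at 6 months, and 6814, 6541 and 6933 at 24 months. P18 and P75 overlapped in 1 replicate each, and all 6-month values lay below all P75 values. It rose by 0.36 ± 0.11 to P75 (adjusted p = 0.0128, limma) and fell by 0.78 ± 0.11 to 6 months (adjusted p = 1.9e-05), with no call to 24 months.

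Tuba4a, whose protein is known to lack the terminal tyrosine of Tuba1a and Tuba1b, had 94.5% of its windows found once. It fell by 0.34 ± 0.14 to P75 (adjusted p = 0.0681, limma), rose by 0.44 ± 0.14 to 6 months and fell by 0.53 ± 0.14 to 24 months. Its first fall was not called without P18 replicate 3, where it was highest (10526, against 7399 and 7636), nor without P75 replicate 1 or 3, with libraries scaled to the same total, after quantile normalization or in a fit of those ages alone. Tuba8 rose to P75 by 0.37 ± 0.17 (adjusted p = 0.0877), a call lost under 14 alternatives. Tuba1c had 18 to 37 reads per library and no call. Tuba3a and Tuba3b had at most 1 read in any library.

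The beta-tubulins carry the isotype differences best known between cell types, TUBB4A being associated with oligodendrocytes and TUBB3 with neurons. Tubb4a (chr17:57219489-57227205) had the highest mean level per kilobase (10004), followed by Tubb3 (8496), Tubb2a (6378), Tubb5 (4917), Tubb4b (4896) and Tubb2b (1067). Tubb6 was at 61.4 per kilobase. Tubb1, known from platelets, had 0 reads in 11 libraries and 4 in the other, and the pseudogene Tubb2a-ps2 had at most 3.

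Tubb4a followed the order of Tuba1a and Tuba4a. Its normalized read counts were 24783, 26478 and 29811 at P18, 19991, 23392 and 15399 at P75, 25345, 25983 and 22922 at 6 months, and 17953, 16872 and 18527 at 24 months. P75 spread widely and its highest value overlapped 6 months. The gene fell by 0.48 ± 0.14 to P75 (adjusted p = 0.0111, limma), rose by 0.36 ± 0.14 to 6 months (adjusted p = 0.0404) and fell by 0.48 ± 0.14 to 24 months (adjusted p = 0.0263). The rise was not called without P75 replicate 3 or 6-month replicate 2, and the last fall was not called without 24-month replicate 2.

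Tubb3 (chr8:125935324-125945915) was high at both young ages and lower later. It measured 17130, 16827 and 21545 at P18, 17276, 22735 and 17239 at P75, 13311, 14284 and 13002 at 6 months, and 12781, 11496 and 12828 at 24 months. P18 and P75 overlapped, and every 6-month value lay below every P75 value. It fell by 0.49 ± 0.13 from P75 to 6 months (adjusted p = 0.00448, limma), whereas the log2 changes before and after were 0.04 and -0.13 with no call. Of the 17 neuron markers, 15 rose and 1 fell in the same comparison, beside 31.2% and 29.4% of all genes. Of the 11 tested immature neuron markers, 1 rose and 9 fell. The part of neuronal RNA in the fall of Tubb3 was not tested.

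Tubb2b, a beta-tubulin known from the developing brain, showed the largest change of all. It measured 3174, 3080 and 3025 at P18, 2024, 2411 and 1949 at P75, 1752, 1732 and 1532 at 6 months, and 1209, 1243 and 1469 at 24 months. No neighbouring ages overlapped, and the counts fell 2.37-fold over the whole span (log2 change -1.25 ± 0.10, adjusted p = 1.92e-08, limma). Tubb2a, next to it on chromosome 13 (chr13:34166170-34169877, Tubb2b at chr13:34218877-34222223, both minus strand), fell by 0.91 ± 0.14 over the same span (adjusted p = 3.48e-05). Its P18 values of 12309, 11072 and 18017 were spread more than those of any later age, replicate 3 being highest.

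The coding sequences of Tubb2a and Tubb2b are 96.5% identical over 1338 bases, and 39.4% and 27.5% of their windows occur once in the genome. Their last 60 coding bases are shown because this tail is where beta-tubulin isotypes usually differ most. Tubb2a and Tubb2b differ there at 3 bases, in capitals. Each is the last base of its codon and leaves the encoded amino acid unchanged.
Tubb2a: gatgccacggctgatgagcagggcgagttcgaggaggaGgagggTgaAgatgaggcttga
Tubb2b: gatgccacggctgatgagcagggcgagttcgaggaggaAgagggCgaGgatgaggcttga

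Tubb5 was called only in the comparisons of 24 months. It fell by 0.28 ± 0.11 from 6 to 24 months (adjusted p = 0.089, limma), a call lost under 9 alternatives, and by 0.33 ± 0.11 over the whole span (adjusted p = 0.0197), the latter not called with libraries scaled to the same total (adjusted p = 0.133). Tubb4b (8173 ± 1538 at P18 and 7209 ± 498 at 24 months, SD, n = 3) and Tubb6 (107.0 ± 11.3 and 107.5 ± 7.38) were not called in any comparison.

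**Figure D2:**
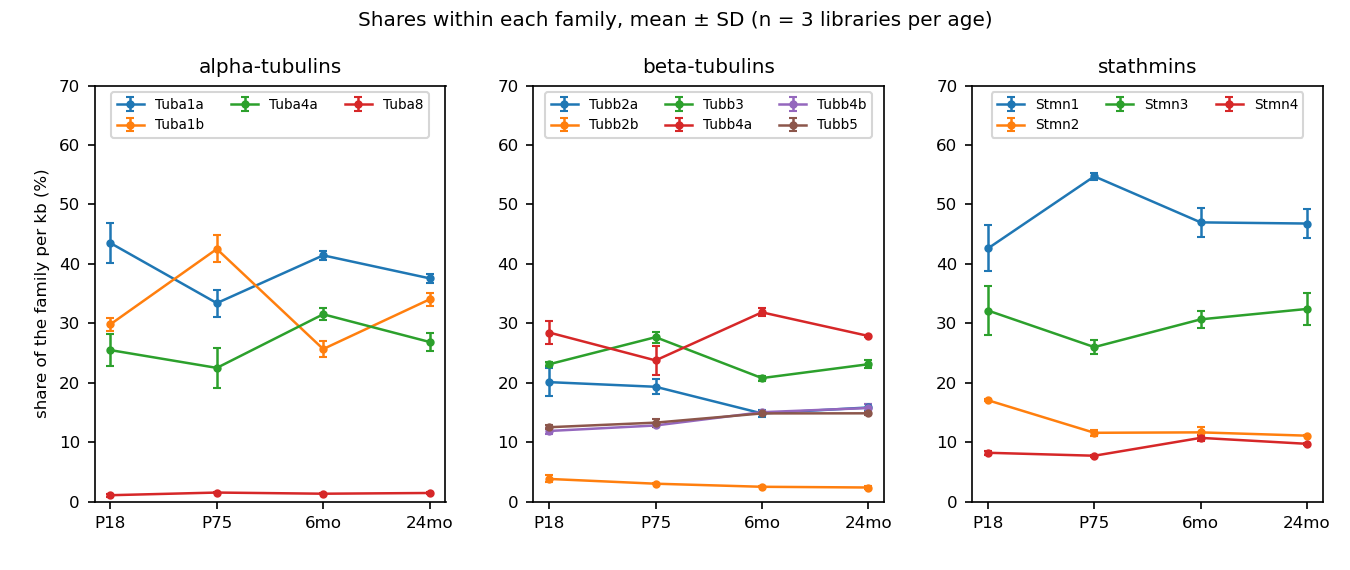
Each panel gives a gene's share (%) of the summed level per kilobase of its family at each age, as the mean with SD over 3 libraries. Genes with a mean share of 1% or less are left out. Tuba1b passes Tuba1a at P75, with 42.5% against 33.4%, and Tubb4a and Tubb3 also change order.

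Within the alpha-tubulins the leading gene changed with age. The share of Tuba1a in the family's level per kilobase was 43.5% ± 3.4, 33.4% ± 2.3, 41.4% ± 0.7 and 37.6% ± 0.8 (SD, n = 3) from the youngest to the oldest age, and that of Tuba1b was 29.8%, 42.5%, 25.7% and 34.0%. Among the beta-tubulins the share of Tubb4a was 28.4%, 23.8%, 31.8% and 27.9% at the same ages, and that of Tubb3 23.1%, 27.7%, 20.8% and 23.1%. These shares did not overlap between any consecutive ages. The exact permutation test of 3 against 3 libraries (two-sided) cannot go below p = 0.1. It reached that value in 31 of 45 tests on the shares, and the smallest adjusted p was 0.145, so none passed. Dividing by the number of windows found once in place of transcript length raised the share of Tuba1b to 48.5%, 63.1%, 45.2% and 54.8% and left Tuba4a at 4.06% to 6.71%, so the order within an age depended on the divisor. With the same divisor Tubb2a took 32.9%, 31.8%, 26.1% and 27.4% of the beta-tubulins at the 4 ages and lay above Tubb4a, at 18.6%, 15.6%, 22.3% and 19.2%. Tuba1b was above Tuba1a at P75 with every divisor tried. The order of Tubb3 and Tubb4a depended on it. Without division by length, Tubb4a stayed above Tubb3 at P75 (26.9% against 26.3%). Divided by windows found once, Tubb3 was above Tubb4a at P18, P75 and 24 months.

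The remaining tubulins were scarcer. Gamma-tubulin, which nucleates microtubules, is encoded by the neighbouring genes Tubg1 and Tubg2 on chromosome 11, with coding sequences 93.3% identical and 73.3% and 77.2% of windows found once. Tubg2, the higher of this group per kilobase (474), measured 990, 954 and 1173 at P18, 925, 1007 and 782 at P75, 651, 744 and 705 at 6 months, and 763, 671 and 619 at 24 months. All values at 6 months lay below those at P75, whereas P18 and P75 overlapped.

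Tubg2 fell by 0.36 ± 0.11 (adjusted p = 0.012, limma) from P75 to 6 months, and Tubg1 by 0.30 ± 0.12 (adjusted p = 0.046), a call lost without P75 replicate 2 or 6-month replicate 1. Both were lower at 24 months than at P18, by 0.60 and 0.67 on the log2 scale. The centriolar tubulins went different ways. Tube1 rose from 43.9 ± 3.4 at P18 to 69.7 ± 4.2 at P75 (SD, n = 3; log2 change 0.66 ± 0.16, adjusted p = 0.0045, limma) on no more than 34 to 71 reads per library. Tubd1 fell over the whole span by 0.62 ± 0.22 (adjusted p = 0.0211), with no call between consecutive ages. With the replicate number as a block, its log2 change of -0.40 from P75 to 6 months was called (adjusted p = 0.0784, limma).

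Stathmins sequester tubulin dimers. Their levels per kilobase were 25420 for Stmn1, 16088 for Stmn3, 6941 for Stmn2 and 4758 for Stmn4. Stmn1 (chr4:134024235-134029758) measured 28067, 27715 and 26611 at P18, 33002, 35183 and 33597 at P75, 19603, 25322 and 23267 at 6 months, and 24229, 24353 and 22390 at 24 months. The P75 values lay above those of every other age. It rose by 0.30 ± 0.12 to P75 (adjusted p = 0.0467, limma) and fell by 0.58 ± 0.12 to 6 months (adjusted p = 0.000565). The rise was not called without P75 replicate 2 or after quantile normalization. Only 54.2% of its windows occur once in the genome.

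Stmn2, a stathmin of growing axons, fell at both early steps. It measured 18913, 19086 and 21499 at P18, 12198, 13181 and 13286 at P75, 9845, 9912 and 10428 at 6 months, and 9913, 10193 and 10124 at 24 months. The first 3 ages were fully separate, and the last 2 overlapped. It fell by 0.62 ± 0.09 to P75 (adjusted p = 7.29e-05, limma), by 0.36 ± 0.09 to 6 months (adjusted p = 0.00379), and by 0.97 over the whole span.

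Stmn3 fell by 0.36 ± 0.13 to P75 (adjusted p = 0.0341, limma), a call that was lost without P18 replicate 3, in which it was highest (27442, against 19173 and 20663), without P75 replicate 3 and with scaling to the same total. Stmn4 ranged from 6025 to 7120 over all 12 libraries and had no call. As a share of the stathmins per kilobase, Stmn1 took 42.6%, 54.7%, 47.0% and 46.8% at the 4 ages and Stmn2 17.1%, 11.6%, 11.6% and 11.1%. Divided by merged exon length in place of transcript length, Stmn3 lay above Stmn1 at P18 (40.4% against 30.2%), 6 months (39.9% against 34.5%) and 24 months (42.0% against 34.2%).

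**Figure D3:**
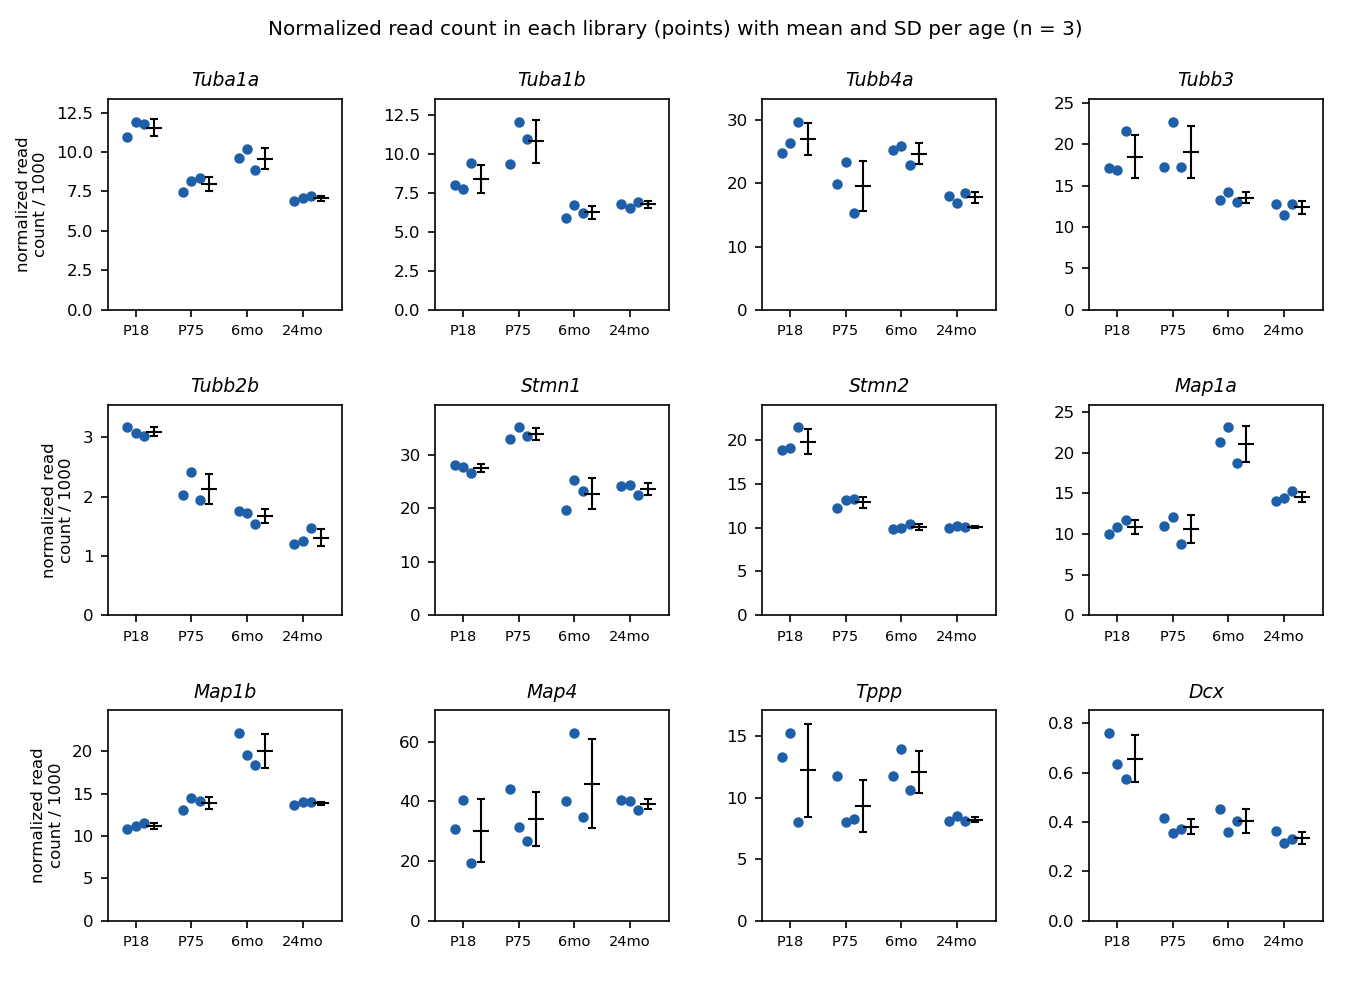
Points are the normalized read counts (divided by 1000) of the 3 libraries of each age for 12 of the genes, with the mean and SD as black bars beside them and the axis starting at 0. Tubb2b falls at every age, Map1a and Map1b peak at 6 months, and Map4 and Tppp spread widely within P18, P75 and 6 months.

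End-binding proteins mark the growing plus end. All 3 fell from P18 to P75 with no overlap between the ages, where 22.9% of all genes fell and 47.7% did not overlap. All 3 were also lower at 24 months than at P18, beside 34.3% of all genes. Mapre3 (chr5:31117014-31168479) was the highest per kilobase (1721). It measured 4000, 4017 and 4797 at P18, 3113, 3888 and 2921 at P75, 3271, 3558 and 3381 at 6 months, and 2799, 2884 and 3115 at 24 months. It fell by 0.38 ± 0.11 to P75 (adjusted p = 0.00969, limma). Mapre1 showed the largest fall of the group, 0.70 ± 0.10 (adjusted p = 5.4e-05), from 4965 ± 416 to 3052 ± 162 (SD, n = 3). Mapre2 fell by 0.27 ± 0.08 to P75 (adjusted p = 0.0127) and by 0.28 ± 0.08 from 6 to 24 months (adjusted p = 0.023). The early falls of Mapre2 and Mapre3 were not called with libraries scaled to the same total.

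The Tppp genes encode tubulin polymerization-promoting proteins, of which TPPP is known as an oligodendrocyte protein that nucleates microtubules away from the cell body. Tppp (chr13:74146855-74173201) measured 13340, 15318 and 8051 at P18, 11776, 8020 and 8265 at P75, 11780, 13992 and 10638 at 6 months, and 8145, 8492 and 8078 at 24 months. The replicates at P18 spread over a wider range than the age means, 8238 to 12236, whereas those at 24 months were close together. It rose by 0.39 ± 0.19 to 6 months (adjusted p = 0.0999, limma), a call at the threshold that 11 alternatives lost, and fell by 0.55 ± 0.19 to 24 months (adjusted p = 0.0551), a call lost without 6-month replicate 1 or 2 or without any 1 library of 24 months. The low P18 value was in replicate 3, which also had the lowest myelin marker sum of its age. The part of that difference in the result was not tested.

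Tppp3 (chr8:107991393-107995322) had the highest level per kilobase of the group (2808, against 2061 for Tppp). It measured 3913, 4025 and 2799 at P18, 2716, 3641 and 3452 at P75, 1761, 2431 and 1917 at 6 months, and 2992, 2507 and 2316 at 24 months. The 6-month values lay below all P75 values, and 6 and 24 months overlapped. It fell by 0.69 ± 0.15 to 6 months (adjusted p = 0.00138, limma), the opposite direction from Tppp. Per kilobase, Tppp made up 40.2%, 36.6%, 54.6% and 39.0% of the group at the 4 ages. Tppp2 had at most 3 reads in any library.

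The structural MAPs included the largest rises with a call, those of Map1a and Map6 to 6 months. From P75 to 6 months 5 of 8 rose (Map1a, Map1b, Map1s, Map2 and Map6), 1 fell (Map7), beside 31.2% and 29.4% of all genes, and the median log2 change was 0.43. From 6 to 24 months 4 fell, beside 12.7% of all genes, and none rose in the limma test. Map1a, Map1b and Map2 are best known from neurons, with MAP2 in dendrites.

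Map1a (chr2:121115336-121136568) measured 9939, 10897 and 11692 at P18, 10987, 12138 and 8731 at P75, 21359, 23156 and 18791 at 6 months, and 14044, 14427 and 15268 at 24 months. All 6-month values lay above all others. The rise from P75 was 1.998-fold (log2 change 0.999 ± 0.124, adjusted p = 8.03e-06, limma), followed by a fall of 0.53 ± 0.12 (adjusted p = 0.00936). Its annotated span overlaps Ppip5k1, as those of Tuba4a, Tubb4b and Tube1 overlap Stk16, Fam166a and Wisp3, so that some of their reads may not be separable. The spans of other genes described here also overlap annotated genes, among them Tubb3, Stmn1, Map2, Map4, Mapt, Mapre3, Tuba8 and Tppp.

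Map1b (chr13:100191419-100286557), an early neuronal MAP, was the only one to rise at both early steps. It measured 10863, 11140 and 11548 at P18, 13120, 14460 and 14123 at P75, 22228, 19627 and 18355 at 6 months, and 13665, 13982 and 14017 at 24 months. The values of P18, P75 and 6 months did not overlap. It rose by 0.31 ± 0.10 (adjusted p = 0.0173, limma) and then by 0.53 ± 0.10 (adjusted p = 0.000311), and fell by 0.53 ± 0.10 to 24 months (adjusted p = 0.00281).

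Map2 (chr1:66221847-66489157) measured 12977, 12388 and 12193 at P18, 12393, 11793 and 13471 at P75, 17804, 15329 and 16096 at 6 months, and 12161, 13015 and 13209 at 24 months. Only 6 months stood apart, and the means of the other ages lay within 12519 to 12795. It rose by 0.39 ± 0.10 (adjusted p = 0.00324, limma) and fell by 0.36 ± 0.10 (adjusted p = 0.0188). From P75 to 6 months 15 of the 17 neuron markers rose and 1 fell, beside 31.2% and 29.4% of all genes. The median log2 change of these markers was 0.50. From 6 to 24 months 1 of them rose and 6 fell, beside 16.6% and 12.7% of all genes. The part of neuronal RNA in these results was not tested.

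Map4, the widely expressed MAP, was the structural MAP with the highest level per kilobase (6138) and ranked at position 29 of all genes by mean normalized read count. It measured 30682, 40370 and 19333 at P18, 44035, 31352 and 26660 at P75, 39986, 63091 and 34914 at 6 months, and 40407, 39980 and 37249 at 24 months. The range within 6 months was wider than that of the age means, 30128 to 45997, with a coefficient of variation of 34.9%, 26.4% and 32.7% at the first 3 ages and 4.4% at 24 months. None of its comparisons was called, the closest having a log2 change of 0.44 ± 0.25 from P18 to 24 months (adjusted p = 0.137, limma). With the replicate number as a block, that change (adjusted p = 0.0701) and the one of 0.42 from P75 to 6 months (adjusted p = 0.0963) were called. The change from P18 to 24 months was also called with scaling to the same total (adjusted p = 0.0377, limma).

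Mapt, the gene of tau, measured 9194, 9174 and 8205 at P18, 10980, 10458 and 8930 at P75, 11268, 13305 and 10309 at 6 months, and 9913, 9694 and 9938 at 24 months. The 24-month values lay below all 6-month values and above all P18 values, yet no comparison was called (log2 changes of 0.19, 0.20 and -0.23 between consecutive ages, adjusted p = 0.18, 0.139 and 0.142, limma). With libraries scaled to the same total, its rises from P18 to P75 and to 24 months were called (adjusted p = 0.038 and 0.0946, limma). All 4 comparisons of Mapt were called after quantile normalization. Map6, the gene of the stable tubule only protein, fell by 0.38 ± 0.12 to P75 (adjusted p = 0.0215) and rose by 0.80 ± 0.12 to 6 months (adjusted p = 5.73e-05). Map7, which recruits kinesin-1, fell at both early steps by 0.27 each, to 2370 ± 225 at 6 months from 3439 ± 386 at P18 (SD, n = 3). The first fall was not called without P18 replicate 1 or 2 or with scaling to the same total, and the second not without 6-month replicate 3. Map1s rose by 0.44 ± 0.11 to 6 months (adjusted p = 0.00374). Its fall of 0.29 ± 0.11 to 24 months (adjusted p = 0.0768) was not called without 6-month replicate 2 or 3 or 24-month replicate 1 or 2, nor with scaling to the same total, and the early fall of Map6 was not called without P75 replicate 3 or with that scaling.

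**Figure D4:**
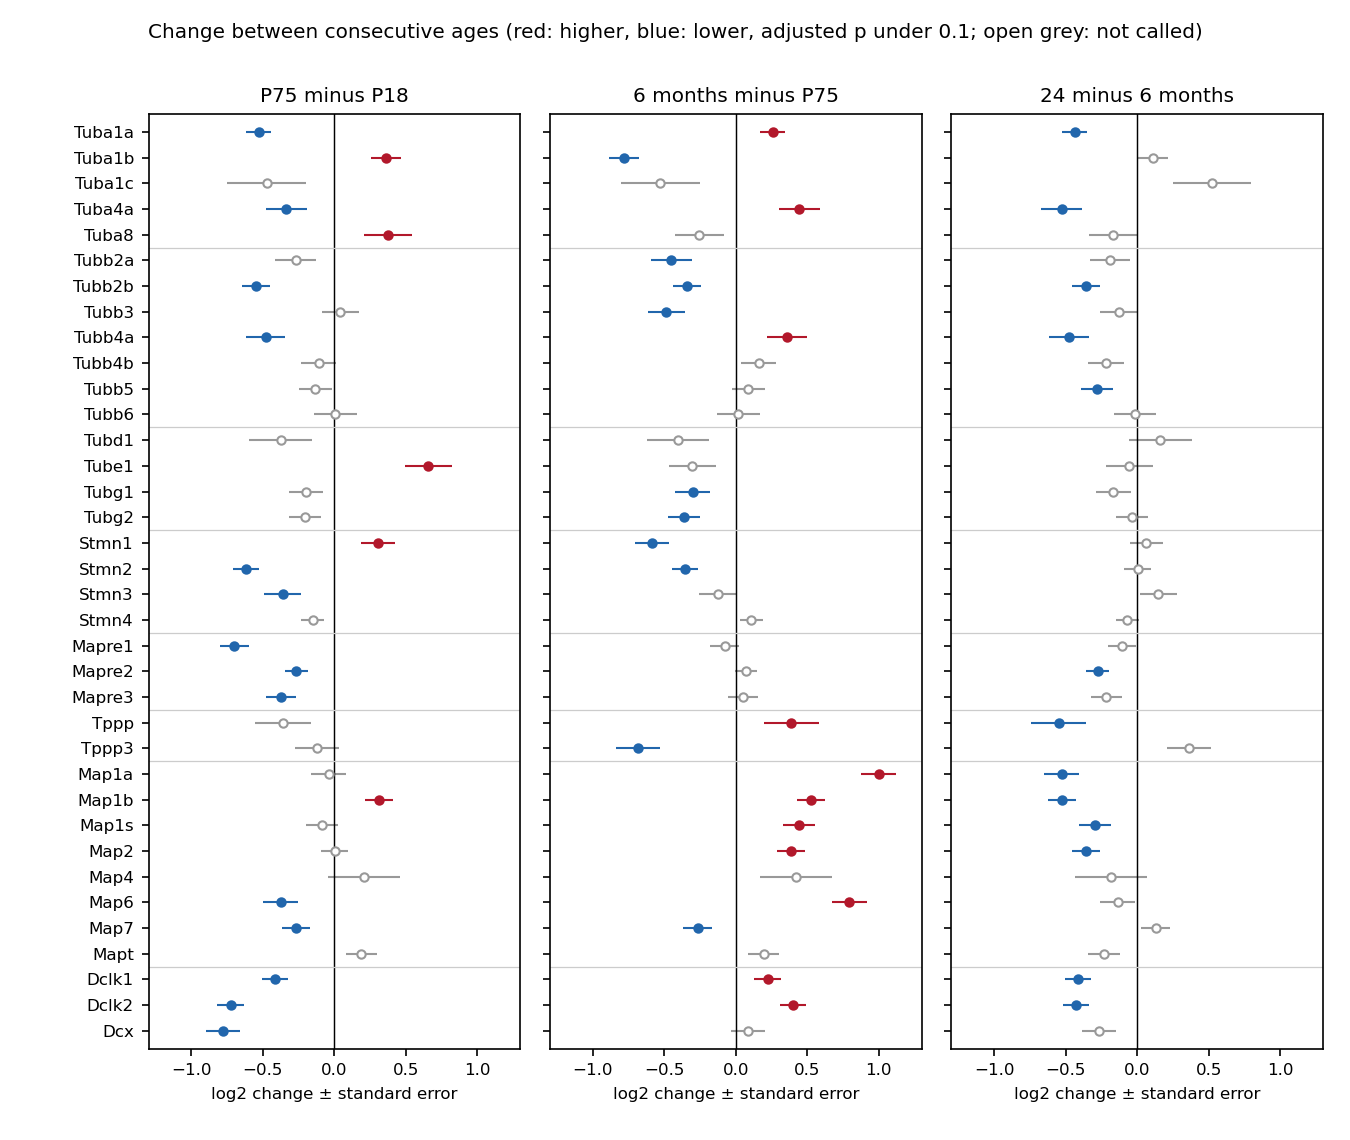
Points are log2 changes of the 36 tested genes between consecutive ages with their standard errors from limma. Filled red and blue points rose and fell with an adjusted p under 0.1, and open grey points were not called. All filled points in the last panel lie below 0.

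Doublecortin and its kinase relatives bind microtubules in migrating and growing neurons, and all 3 fell from P18 to P75 without overlap. Of all genes, 22.9% fell in that comparison and 47.7% did not overlap. Dcx (chrX:140290385-140367854) was 763, 635 and 575 at P18, 417, 357 and 371 at P75, 454, 358 and 405 at 6 months, and 363, 316 and 330 at 24 months. Every P18 value lay above every later one. It fell by 0.78 ± 0.12 to P75 (adjusted p = 9.98e-05, limma). In that comparison 5 of the 11 tested immature neuron markers fell and 0 rose, beside 22.9% and 25.9% of all genes. The median log2 change of these markers was -0.41. The part of immature neurons was not tested.

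Dclk1 (chr3:55046448-55342986), highest of the group per kilobase (1304), measured 12173, 11458 and 13835 at P18, 9391, 9137 and 9467 at P75, 11697, 10480 and 10555 at 6 months, and 8121, 8162 and 8268 at 24 months. No neighbouring ages overlapped. It fell by 0.42 ± 0.09 (adjusted p = 0.00201, limma), rose by 0.22 ± 0.09 (adjusted p = 0.0522) and fell by 0.41 ± 0.09 (adjusted p = 0.00765). The rise was not called without P75 replicate 2 or 6-month replicate 1, or with scaling to the same total. Dclk2 took the same course with log2 changes of -0.73, 0.40 and -0.43 (adjusted p = 2.16e-05, 0.00187 and 0.0064).

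Replicates of an age were also compared with the marker sums of their own libraries. In Map4 and Map7 the replicate with the highest value was the one with the highest myelin marker sum at all 4 ages, as it was at 3 ages in Mapre1, Tppp and Tppp3. In Map1b and Tuba4a it was the one with the highest neuron marker sum at all 4 ages. Another 13 genes, Tubb3 and Tubb4a among them, had this match at 3 ages. These counts are a description of 3 libraries per age, and the matching counts over all genes were not computed.

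Other genes that regulate microtubules were taken from lists of folding cofactors, modifying and severing enzymes, gamma-tubulin ring subunits, end-binding factors, MARK and BRSK kinases and further MAPs. Of 88 listed genes 83 were tested. From P18 to P75 8 rose and 36 fell, where 25.9% and 22.9% of all genes did. From P75 to 6 months 22 rose and 25 fell, where 31.2% and 29.4% of all genes did. From 6 to 24 months 5 rose and 24 fell, beside 16.6% and 12.7%, and over the whole span 7 rose and 43 fell, beside 34.7% and 34.3%. As among the microtubule genes themselves, falls outnumbered rises in the first and in the last of the consecutive comparisons.

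The largest change was in Sirt2, the tubulin deacetylase known as a myelin protein, which dropped from 30758 ± 5211 at P18 to 4822 ± 173 at P75 (SD, n = 3; log2 change -2.66 ± 0.12, adjusted p = 6.26e-10, limma) and to 3199 ± 46 at 24 months. All 6 MARK and BRSK kinases, which phosphorylate MAPs, fell to P75, beside 22.9% of all genes. Mark4 fell from 189 ± 36 to 78.2 ± 31.4 and rose to 283 ± 33 at 6 months (log2 change 1.92 ± 0.23, adjusted p = 4.84e-06). Among the folding cofactors, which assemble the tubulin dimer, 5 of 7 fell from P75 to 6 months, beside 29.4% of all genes. Tbca, the beta-tubulin cofactor, went from 4322 ± 548 to 1638 ± 226 there (log2 change -1.40 ± 0.11, adjusted p = 1.89e-07) and rose to 2414 ± 170 at 24 months.

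Among the modifying enzymes 12 of 23 were lower at 24 months than at P18 and 1 was higher, beside 34.3% and 34.7% of all genes. The carboxypeptidase gene Agbl4 rose from 42.4 ± 9.5 at P75 to 82.7 ± 5.2 at 6 months, and the glutamylase gene Ttll7 fell from 3872 ± 600 at 6 months to 2238 ± 126 at 24 months. Of the severing enzymes Fign, for fidgetin, fell from 61.5 ± 12.7 at P18 to 31.03 ± 11.56 at P75 and rose to 77.95 ± 19.03 at 6 months, Fignl1 fell from 39.5 to 22.3 between 6 and 24 months, and the katanin-like Katnal2 was at 11.8 ± 1.5 at P18 and 31.3 ± 6.7 at 24 months.

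Of the gamma-tubulin ring genes, Nedd1 fell from 169 ± 19 at P18 to 135 ± 8 at P75, and Tubgcp4 rose from 123.4 ± 21.7 at P75 to 223 ± 21 at 6 months before falling to 165 ± 15 at 24 months. Mzt2 went from 765 ± 153 at P18 to 426 ± 23 at 24 months. Of the end-binding factors, Clip3 fell from 15512 ± 3414 at P18 to 9440 ± 1224 at P75, and Clip2 rose from 1171 ± 225 at P75 to 2161 ± 121 at 6 months and fell to 1547 ± 101 at 24 months. Among the further MAPs, Dpysl3, of the collapsin response mediator family, had 36.6 ± 14.2 at P75, 84.3 ± 7.5 at 6 months and 34.2 ± 9.2 at 24 months, and Map6d1 fell over the whole span from 1578 ± 281 to 771 ± 27. Tbcel, a tubulin-binding cofactor-like protein, fell from 1617 ± 104 at P18 to 825 ± 45 at 24 months, and Mark3 from 1858 ± 131 to 1108 ± 52. All changes named for these regulators passed the limma test, with adjusted p-values from 1.31e-11 for Sirt2 over the whole span to 0.0624 for Nedd1.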

How the data were processed

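RNA of purified myelin was sequenced in 12 libraries, 3 at each of 4 ages, and groups were taken from the library labels. Reads were aligned by the authors to mm9 (NCBIM37) with TopHat at its default options and counted on genes with HTSeq 0.5.4p1. SAMtools 0.1.19 was also used, and the submitters' processing notes list TopHat2 2.0.8. The gene annotation, the strand setting and the counting options are not given in the sources used here. How reads with several matches were treated is not stated there either. The deposited signal is the count of each gene divided by the library's DESeq size factor, a normalized read count without length correction. Every value up to 300 was a whole multiple of 1 read in all libraries (tolerance 0.005), which gave the depth and the reads for edgeR and DESeq2. In 3 libraries 1 read was worth close to 1, where the step is harder to tell from rounding.

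Genes were chosen by symbol, 34 as listed and 7 (Map1a to Map7) under the older Mtap symbols. The genes and lists were chosen with earlier results of these data known. Of the 41, 40 matched the GENCODE annotation of NCBIM37, which gave coordinates, transcript lengths and coding sequences. Of the 41, 5 with a mean under 10 were not tested. The members given library by library were those called with a log2 change of at least 1, the highest per kilobase of each role, and Tubb3, Tubb4a, Mapt, Map1b, Map2, Stmn1, Tppp and Dcx; Tuba1b, Stmn2 and Map1a, and single values of others, were added after their values were seen. Some sequences are not reported here. Of each list of regulators, the called gene with the largest change in each comparison was named.

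Ages were compared with limma 3.58.1 in R 4.3.3 (empirical Bayes with a mean trend) on log2(value + 1) over the 14634 genes averaging 10 or more, fitting all 12 libraries together with age as the only term, adjusted by Benjamini-Hochberg and called at 0.1. The libraries were taken to come from different mice, which the paper states only for 6 months, and p-values measure the spread between libraries. The methods were tested on simulated data. Shares were tested by exact permutation. Same-numbered replicates correlated above 0.1 in all 3 pairs for 6 months against P75 (r = 0.161, 0.101 and 0.187), and not in the other comparisons. This met the rule used here for pairing, although nothing in the labels pairs them. Differently numbered replicates also passed 0.1. For P75 replicates 1, 2 and 3 with P18 replicates 2, 3 and 1, r was 0.108, 0.225 and 0.147. The rule therefore cannot show that libraries are paired. Alternatives were a pseudocount of 0.5 or 10, other filters, a fit of only the ages compared, quantile normalization, scaling to the same total, a replicate block, a false discovery rate of 0.05, leaving out each library, and edgeR 4.0.16 and DESeq2 1.42.0 on recovered reads. Restricting the count to genes with at least 80% of windows found once, and other divisors for the shares, were added after seeing the data. Python 3.11.15 with pandas 2.3.3, scipy 1.17.1 and matplotlib 3.10.9 was used.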

Additional observations from a re-analysis of the deposited data

How the results depend on the processing

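No log2 change of a microtubule gene that was called reversed its direction under any alternative. Of 144 changes the replicate block lost 1 call (Tubb5 from 6 to 24 months, adjusted p = 0.107) and gained 5 (Map4 and Tubd1 as given above, Dcx and Tppp3 from 6 to 24 months, adjusted p = 0.0668 and 0.0901), changing no other, with 12 rising and 11 falling from P75 to 6 months in place of 11 and 10. Scaling to the same total lost 12 calls and gained 4, with 8 genes falling from P18 to P75 in place of 14 and 6 rising from P18 to 24 months in place of 3. The median of all genes then moved from 0.02 to 0.14 in the first of these comparisons, and quantile normalization moved it from -0.01 to -0.12 from P18 to 24 months. From 6 to 24 months 1 gene rose in place of 0 in the fit of those ages alone, with the replicate block, with quantile normalization and in edgeR and DESeq2. Among genes with at least 80% of their windows found once, a smaller set by construction, 3 in place of 5 rose from P18 to P75 and 3 in place of 10 fell from P75 to 6 months. The cause of the other differences was not tested.

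With each library left out in turn, 3 to 5 rose and 13 to 17 fell from P18 to P75, 9 to 13 rose and 9 to 11 fell from P75 to 6 months, 0 to 1 rose and 9 to 17 fell from 6 to 24 months, and 2 to 3 rose and 21 to 23 fell from P18 to 24 months. The lowest counts came without P75 replicate 2 (3 rising to P75) and without 24-month replicate 2 (9 falling to 24 months). Over the alternatives to the 64 family shares, 138 values moved by more than the spread between replicates and 246 did not. Groups of 3 libraries limit the precision, and genes with under 100 reads, such as Tube1 and Tuba1c, carry the largest counting error.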
